A study of Mus musculus with 8 samples.

Results

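The synaptic vesicle and exocytosis genes are 30 genes whose products belong to neurotransmitter vesicles or act in their docking, priming and fusion, chosen by symbol from the 55414 genes counted in the series: Syp, Snap25, Vamp1, Vamp2, Stx1a, Syn1, Syn2, Sv2a, Sv2b, Sv2c, Rab3a, Rab3c, Cplx1, Cplx2, Unc13a, Rims1, Rims2, Bsn, Pclo, Snapin, Syt1, Syt2, Syt4, Syt7, Syt11, Doc2b, Rph3a, Nsf, Napa and Napb. Each symbol matched 1 row of the table. The 8 libraries came from cells labelled enteric neurons, sorted with antibodies to CD24 and CD56 from mouse colon at 4 weeks of age, with 4 libraries from Emb knockdown mice and 4 from WT mice. Emb encodes embigin, a membrane glycoprotein that partners with lactate transporters. The sources used here do not give how the knockdown was made, in which cells it acted, or the strain of the mice. Each tube held about 250 cells. Nothing in the labels ties a tube to 1 mouse, so the p-values reflect only how far these libraries differ among themselves, which may be technical.

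In a nerve terminal, vesicles are filled with transmitter, tethered at the active zone by large scaffold proteins and primed by Munc13 and RIM proteins. Fusion is driven by the SNARE proteins, synaptobrevin on the vesicle and syntaxin and SNAP-25 on the plasma membrane, which zip into a bundle that complexin clamps and synaptotagmin releases when calcium enters. The ATPase NSF and its adaptors, the alpha and beta SNAP proteins, then take the bundle apart for reuse. Neurons of the gut wall use this machinery to release acetylcholine, purines and neuropeptides onto muscle, mucosa and one another.

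None of the 30 genes passed an adjusted p of 0.05 between Emb knockdown and WT by edgeR, and most were counted only a few times per library. Piccolo (Pclo), synaptotagmin 1 (Syt1) and synaptotagmin 11 (Syt11) together held 37.7% to 80.5% of the counts of the set in Emb knockdown libraries and 49.9% to 66.2% in WT libraries. Syt11 was higher in every Emb knockdown library than in any WT library, and Syt1 and rabphilin (Rph3a) were lower in every Emb knockdown library than in any WT library, on TMM-scaled values; set against the receptor-gene background described below, both of these overlapped. The standard markers of synaptic terminals, Snap25, synaptophysin (Syp) and synapsin 1 (Syn1), stayed near the level of olfactory and related receptor genes, taken as a background, in both genotypes.

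Library facts bear on all of these values. Total counts ran from 2024372 to 2712754 in Emb knockdown and from 698930 to 954191 in WT, and the ribosomal RNA gene Rn18s-rs5 took 29.2% to 42.5% of them in Emb knockdown and 3.55% to 13.0% in WT. Depth and genotype cannot be told apart here. Emb itself had 5, 25, 3 and 5 counts in Emb knockdown replicates 1 to 4 and 4, 6, 22 and 16 in WT replicates 1 to 4 (log2 fold change -1.24 ± 0.82, SE, edgeR adjusted p = 0.529), so a decrease of the targeted gene was not detected. The 30 genes together made up 0.0997% to 0.157% of the counts outside ribosomal RNA in Emb knockdown and 0.147% to 0.251% in WT. Since these are tubes of pooled cells, fewer neurons and less RNA per neuron cannot be told apart.

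Markers of the labelled cell type were sparse. All 18 genes of the neuron list had counts in some library and 8 had enough to be tested; their summed level was 274 to 548 CPM (counts scaled to the library total and TMM-normalised) in Emb knockdown and 285 to 468 CPM in WT. Of these, Elavl3, an RNA-binding protein gene of neurons, was lower in every Emb knockdown library than in any WT library on TMM-scaled values. It had 97.9, 94.9, 75.1 and 117 CPM in Emb knockdown and 178, 151, 159 and 270 CPM in WT (log2 fold change -0.97 ± 0.61, edgeR adjusted p = 0.513). Against the receptor-gene background described below, Elavl3 lay at 8.85 to 16.9 times in Emb knockdown and 14.9 to 26.1 times in WT. On that scale the groups overlapped. Uchl1 had 326, 56.2, 86.5 and 0 CPM in Emb knockdown and 7.72, 29.9, 6.09 and 2.81 CPM in WT. Its log2 fold change was 3.32 ± 1.40 (edgeR unadjusted p = 0.0359, adjusted p = 0.342), and its groups overlapped through Emb knockdown replicate 4. Of the 8 neuron markers tested, 4 were higher and 4 lower, with a median log2 fold change of -0.02. The part of neuron content in the levels of the vesicle genes was not tested. The 8 glial markers summed to 20240 to 29170 CPM in Emb knockdown and 19110 to 54760 CPM in WT. The 10 enteroendocrine markers, genes of gut hormone cells that also secrete by exocytosis, summed to 21.1 to 83.3 CPM in Emb knockdown and 53.4 to 204 CPM in WT, with overlap. Of mean sums of 51.7 CPM in Emb knockdown and 122 CPM in WT, Chga alone held 13.25 CPM and 82.7 CPM. Fibroblast markers summed to 256 to 497 CPM in Emb knockdown and 72.1 to 216 CPM in WT, with no overlap. Endothelial markers summed to 178 to 1450 CPM in Emb knockdown and 361 to 2076 CPM in WT, with overlap. Pecam1 alone averaged 440.5 CPM in Emb knockdown and 1207 CPM in WT, of mean endothelial sums of 564 CPM and 1311 CPM. Of the 4 endothelial markers tested, 2 were higher and 2 lower. The sums for epithelium (147 to 270 CPM in Emb knockdown and 205 to 254 CPM in WT), T and B cells (92.1 to 143 CPM in Emb knockdown and 71.5 to 171 CPM in WT), smooth muscle (39.5 to 67.3 CPM in Emb knockdown and 57.6 to 92.0 CPM in WT) and interstitial cells of Cajal (43.3 to 52.6 CPM in Emb knockdown and 36.0 to 64.7 CPM in WT) overlapped between the genotypes. No marker was at 0 in all 8 libraries, and 1, the epithelial gene Fabp2, was at 0 in all WT libraries. The part of these cell types in the results below was not tested.

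**Figure D1:**
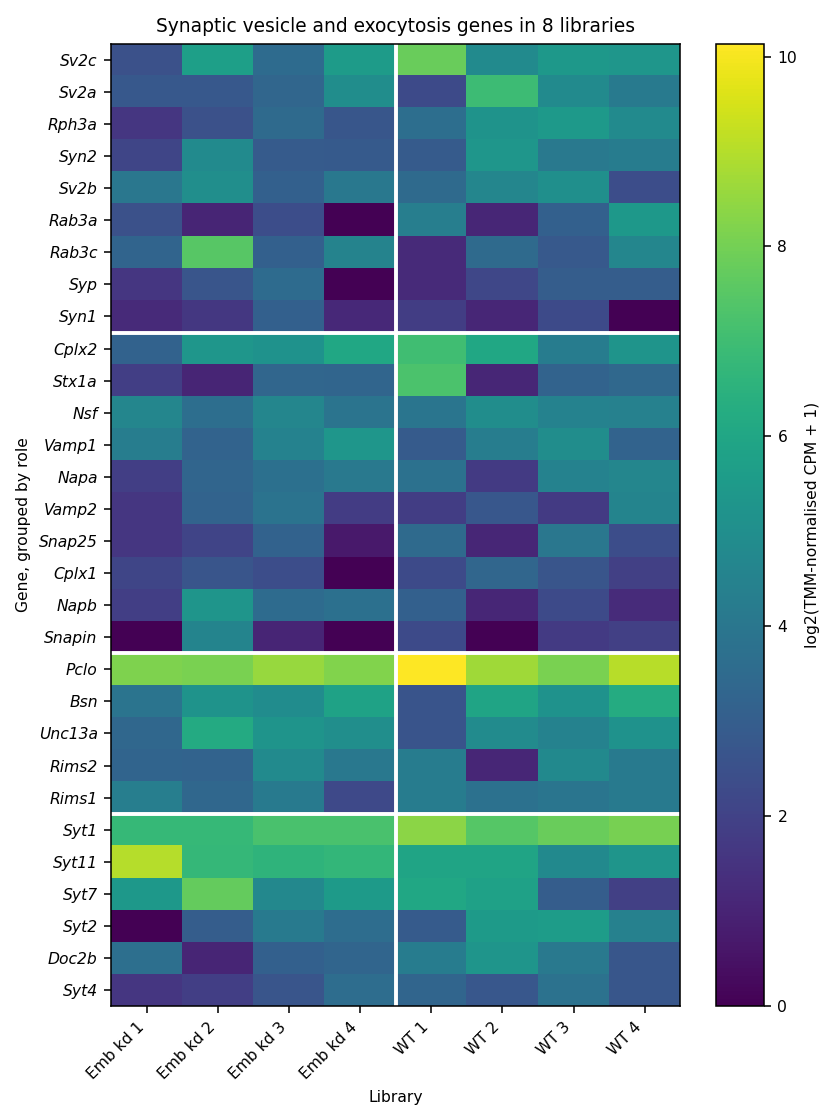
TMM-normalised CPM on a log2 scale with 1 CPM added, for the 30 genes (rows, grouped by role: vesicle membrane and Rab, SNARE and fusion, active zone and priming, calcium sensors) in 4 Emb knockdown and 4 WT libraries (columns). Pclo and Syt1 are bright in all 8 libraries, Syt11 is brightest in Emb knockdown replicate 1 at 508 CPM, and most other genes are dark with single bright libraries.

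To judge which of these genes stood above stray signal, each gene's counts per exonic kilobase were set against the same measure summed over 1506 olfactory, vomeronasal and trace amine receptor genes of that library. Syt1, Pclo and Syt11 lay above 2 times this receptor-gene background in all 8 libraries, and they were the only 3 of the 30 to do so. Cplx2, complexin 2, lay above it in 4 of 4 WT libraries and 3 of 4 Emb knockdown libraries, and Syt7 in 4 of 4 Emb knockdown and 2 of 4 WT libraries. Per library, 10 to 16 of the 30 genes (33.3% to 53.3%) passed 2 times the background in Emb knockdown, where 38.8% to 48.3% of other protein-coding genes did. In WT it was 9 to 14 genes (at most 46.7%), against 26.1% to 35.4% of other protein-coding genes.

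Snap25, Syp and Syn1 never reached 2 times the background in any library. Snap25, the plasma membrane SNARE that defines neuronal exocytosis, had 3, 6, 15 and 1 counts in Emb knockdown replicates 1 to 4 and 8, 1, 20 and 3 in WT replicates 1 to 4. Syp, an abundant vesicle membrane protein used to stain terminals, had 3, 10, 20 and 0 counts in Emb knockdown and 1, 3, 9 and 5 in WT. Syn1, which ties vesicles to actin, had 2, 4, 14 and 2 counts in Emb knockdown and 2, 1, 5 and 0 in WT. The groups overlapped for all 3 genes, and none had enough counts to be tested. When the longest principal transcript replaced all annotated exons as the gene's length, an alternative added after seeing the data, Syn1 alone stayed below 2 times in every library, and Snap25 reached at most 4.17 times.

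**Figure D2:**
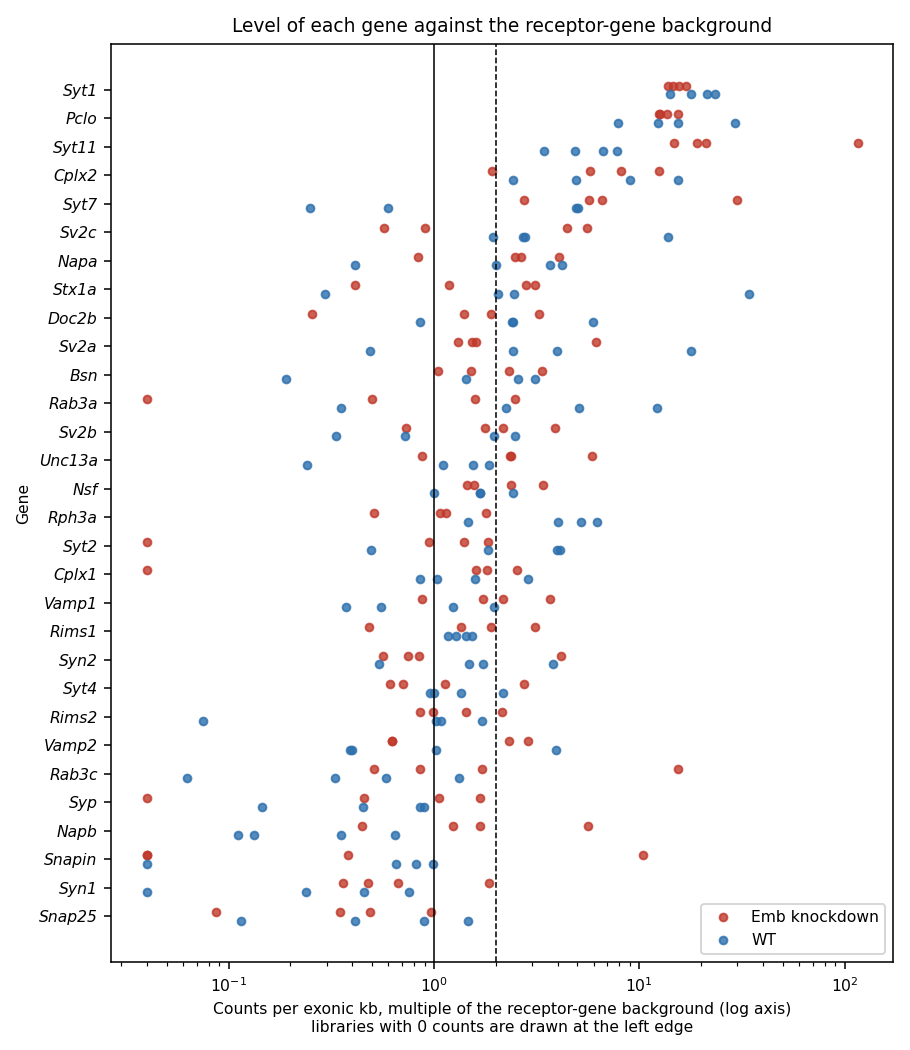
Counts per exonic kilobase of each of the 30 genes as a multiple of the receptor-gene background (log axis), with 1 point per library, Emb knockdown above WT in each row, a solid line at 1 and a dashed line at 2 times. Syt1, Pclo and Syt11 lie wholly to the right of the dashed line, and Snap25, Syn1 and Syp wholly to the left.

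Of the 30 genes, 22 had enough counts for the edgeR test and 8 did not: Syp, Snap25, Vamp2, Syn1, Rab3a, Cplx1, Snapin and Syt4. Of the 22 tested, 0 passed the adjusted p of 0.05, as did 0 (0%) of all 11353 genes tested; the lowest adjusted p among the 22 was 0.295. At an unadjusted p under 0.05 stood 4 of the 22, namely Rph3a and the syntaxin gene Stx1a (lower in Emb knockdown) and Syt11 and the NSF adaptor gene Napb (higher), beside 13.3% of all genes tested. The shares of all genes at that p were 8.64% higher and 4.64% lower. The libraries of the genotypes did not overlap for 3 genes, beside 8.28% of all genes: 1 was higher (beside 4.03%) and 2 were lower (beside 4.25%). The 22 tested genes had a median log2 fold change of -0.47 and 16 of them were below 0, where all tested genes had a median of 0.04 and 48.4% were below 0. Over all 30 genes, with no filter on counts, the median log2 ratio of group means (with 1 CPM added) was -0.45, and 22 were below 0.

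The count of directions differed between scalings, which move all genes alike. Scaled to the receptor genes, 11 of the 22 were lower and 11 higher, with a median of 0.08 against 0.64 for all genes. With library totals alone, 17 of the 22 were lower and the median was -1.13 against -0.67 for all genes. The median of the set minus that of all genes was -0.50 in the reported fit, -0.57 with receptor-gene scaling and -0.46 with library totals. Among all genes at an unadjusted p under 0.05, 981 of 1508 were higher in the reported fit, 2060 of 2201 when scaled to the receptor genes and 375 of 2079 with library totals alone.

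**Figure D3:**
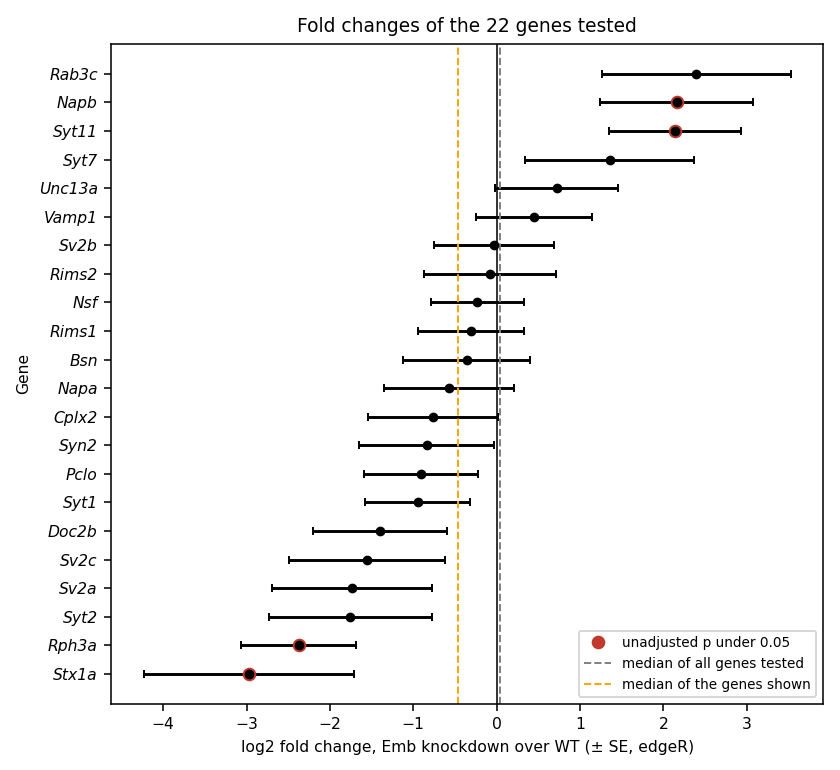
Log2 fold change of Emb knockdown over WT with its standard error for the 22 genes tested, ordered by value; red rings mark the 4 genes with an unadjusted p under 0.05, and dashed lines mark the median of these genes (-0.47) and of all 11353 genes (0.04). Rab3c, Napb and Syt11 stand highest and Stx1a and Rph3a lowest.

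The stretches upstream of the genes that the comparison turns on are shown so that their composition can be read beside the values that follow. RefSeq start sites (GRCm38.p6) were matched for 23 of the 30 genes, with 32 start sites, and the 250 bases before each start were searched on both strands for 8 motifs. The motifs were the cyclic AMP response element TGACGTCA, the AP-1 site TGANTCA, the GC box GGGCGG, the CCAAT box, the TATAAA box, the NRF1 site, and the left part TTCAGCACC and the right part of RE1, the element bound by the neuronal gene repressor REST. The first listed start is printed for the 5 genes with an unadjusted p under 0.05 or with no overlap between genotypes, and for Syn1, a textbook REST target that stayed at background. Capitals mark any of the 8 motifs, and no match overlapped one of another motif.
Rph3a: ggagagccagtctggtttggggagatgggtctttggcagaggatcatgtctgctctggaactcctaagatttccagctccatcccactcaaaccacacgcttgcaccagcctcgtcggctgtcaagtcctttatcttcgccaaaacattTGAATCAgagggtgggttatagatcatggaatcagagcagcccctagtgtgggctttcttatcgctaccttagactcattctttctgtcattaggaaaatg
Stx1a: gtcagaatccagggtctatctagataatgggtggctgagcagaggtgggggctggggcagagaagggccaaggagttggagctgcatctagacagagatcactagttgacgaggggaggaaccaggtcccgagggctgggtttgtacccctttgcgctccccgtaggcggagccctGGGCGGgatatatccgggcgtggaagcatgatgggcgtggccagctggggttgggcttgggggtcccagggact
Syt11: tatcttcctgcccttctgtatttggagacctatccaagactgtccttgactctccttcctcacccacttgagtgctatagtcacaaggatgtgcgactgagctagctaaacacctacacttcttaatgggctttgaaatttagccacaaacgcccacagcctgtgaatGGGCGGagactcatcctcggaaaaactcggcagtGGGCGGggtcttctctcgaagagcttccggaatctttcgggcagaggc
Syt1: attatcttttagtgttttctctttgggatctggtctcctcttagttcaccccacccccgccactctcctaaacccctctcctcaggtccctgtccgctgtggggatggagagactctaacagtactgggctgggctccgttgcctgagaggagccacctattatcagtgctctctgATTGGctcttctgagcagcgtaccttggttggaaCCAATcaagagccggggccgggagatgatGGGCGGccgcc
Napb: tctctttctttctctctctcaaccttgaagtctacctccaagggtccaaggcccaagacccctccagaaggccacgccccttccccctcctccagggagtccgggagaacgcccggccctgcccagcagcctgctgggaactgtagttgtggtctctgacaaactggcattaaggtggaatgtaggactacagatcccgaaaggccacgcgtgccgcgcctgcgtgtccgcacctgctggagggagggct
Syn1: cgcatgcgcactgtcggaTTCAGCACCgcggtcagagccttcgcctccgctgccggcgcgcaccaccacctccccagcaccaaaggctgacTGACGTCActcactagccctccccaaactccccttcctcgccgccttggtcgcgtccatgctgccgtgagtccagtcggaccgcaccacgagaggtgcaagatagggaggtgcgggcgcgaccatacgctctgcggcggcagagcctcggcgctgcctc

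The windows lie at chr5:121010093-121010342 on the minus strand for Rph3a, chr5:135023232-135023481 on the plus strand for Stx1a, chr3:88772600-88772849 on the minus strand for Syt11, chr10:109010976-109011225 on the minus strand for Syt1, chr2:148732421-148732670 on the minus strand for Napb and chrX:20920919-20921168 on the minus strand for Syn1. The Syn1 window held the left part of RE1 and a cyclic AMP response element, each found in 1 of the 32 windows (3.12%), against 0.301% and 1.55% of all 32851 windows of this length. GC boxes stood in 56.2% of the 32 windows and in 32.7% of all windows; the median GC content was 60% in the set and 52.4% over all. AP-1 sites stood in 6.25% of the 32 and 6.75% of all, and CCAAT boxes in 28.1% of the 32 and 33.8% of all. NRF1 sites stood in 3.12% of the 32 and 0.782% of all, TATAAA in 6.25% of the 32 and 12.4% of all, and the right part of RE1 in 0% of the 32 and 0.0974% of all. The GC box stood once in the Stx1a window, in 2 places in the Syt11 window and not in the Rph3a and Napb windows shown. A match describes these letters and is not a measure of binding.

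Among the SNARE and fusion genes, Stx1a and Napb had the smallest p, in opposite directions. Stx1a (chromosome 5, 135023482 to 135051100, plus strand, GRCm38) encodes syntaxin 1A, the plasma membrane SNARE partner of SNAP-25. It had 2.67, 1.06, 9.19 and 8.77 CPM in Emb knockdown replicates 1 to 4, against 154, 1.15, 8.37 and 9.84 CPM in WT replicates 1 to 4. WT replicate 1 stood alone, and the other WT libraries lay within or near the Emb knockdown range. The log2 fold change was -2.97 ± 1.26 (edgeR adjusted p = 0.345), and -0.19 without WT replicate 1 (adjusted p = 0.965).

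Napb (chromosome 2, 148693985 to 148732467, minus strand) encodes beta-SNAP, a brain-enriched adaptor that loads NSF onto SNARE bundles. It had 2.67, 38.2, 10.8 and 12.5 CPM in Emb knockdown, against 7.72, 1.15, 3.804 and 1.41 CPM in WT. Emb knockdown replicate 1 lay within the WT range and the other Emb knockdown libraries above it. The log2 fold change was 2.16 ± 0.92 (edgeR adjusted p = 0.345), and the gene lay at a median of 1.46 times the receptor-gene background in Emb knockdown and 0.243 times in WT. With an Emb knockdown library left out, neither Napb nor Stx1a had enough counts to be tested.

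Napa, the widely expressed alpha-SNAP, had 2.67 to 16.3 CPM in Emb knockdown and 2.30 to 23.9 CPM in WT (log2 fold change -0.57 ± 0.78, edgeR adjusted p = 0.793). Within each library, with no scaling between libraries, Napb made up 34.9%, 69.5%, 31.8% and 29.2% of the length-corrected counts of the adaptor pair in Emb knockdown and 24.4%, 21.2%, 8.75% and 3.06% in WT. The groups did not overlap, on sums of 8 to 89 counts in Emb knockdown and 3 to 33 counts in WT. Nsf, the ATPase itself, had 11.7 to 24.3 CPM in Emb knockdown and 14.2 to 29.9 CPM in WT (log2 fold change -0.23 ± 0.56), the smallest standard error of the 6 fusion genes tested; without WT replicate 2 its sign turned, to 0.04. Without WT replicate 4 the value for Napa was -0.22.

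The synaptobrevins are the vesicle SNAREs. Vamp1 had 8.48 to 39.5 CPM in Emb knockdown and 6.43 to 30.4 CPM in WT (log2 fold change 0.45 ± 0.70, edgeR adjusted p = 0.826, and 0.02 without Emb knockdown replicate 4). Vamp2, the main synaptobrevin of central synapses, had 3, 16, 25 and 4 counts in Emb knockdown and 2, 5, 3 and 16 in WT, and was not tested. Complexins clamp the SNARE bundle. Cplx2 had 8.00 to 65.2 CPM in Emb knockdown and 18.3 to 130 CPM in WT (log2 fold change -0.76 ± 0.78, adjusted p = 0.704, and -0.07 without WT replicate 1), while Cplx1 had 0 to 10 counts in Emb knockdown and 2 to 8 in WT. Cplx2 took a median of 77.4% of the length-corrected complexin counts in Emb knockdown and 80.6% in WT. Snapin, a SNAP-25 binding protein that also links vesicles and lysosomes to motors, had 0, 43, 2 and 0 counts in Emb knockdown and 3, 0, 3 and 2 in WT. Its exons overlap those of Ilf2 on the opposite strand, and the strand setting of the counting is not given, so reads of the pair cannot be told apart.

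Among the genes of the vesicle membrane and its Rab proteins, 1 of the 6 tested was higher and 5 were lower, with a median log2 fold change of -1.20. Rph3a (chromosome 5, 120940499 to 121010092, minus strand) encodes rabphilin, which binds Rab3 and SNAP-25 and acts in vesicle docking. It had the smallest p of the 22 genes tested in the reported fit. With no filter on counts, Stx1a, Rab3c and Syt11 had a smaller p. Rph3a had 2.00, 4.77, 10.3 and 5.64 CPM in Emb knockdown, against 11.6, 35.6, 44.1 and 28.1 CPM in WT. All Emb knockdown libraries lay below all WT libraries, although Emb knockdown replicate 3 and WT replicate 1 were close.

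For Rph3a the log2 fold change came to -2.38 ± 0.69 (edgeR adjusted p = 0.295), with an interval of -3.90 to -0.86 at the 95% level. It ran from -2.83 to -2.08 when single libraries were left out. In Emb knockdown the gene lay at 0.512 to 1.80 times the receptor-gene background, and in WT at 1.47 to 6.22 times, so that on this scale Emb knockdown replicate 3 lay above WT replicate 1. The DESeq2 Wald test gave it an adjusted p of 0.00671, the 1 past the threshold among the 18 genes of the set with an adjusted p by that test. Over all genes the test called 683. An unadjusted p was given to 10732 genes, not all of which had an adjusted p. Syt11, Stx1a and Rab3c received no p and Napb no adjusted p from the DESeq2 test.

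Rab3a and Rab3c encode small GTPases that recruit rabphilin and RIM to vesicles. Rab3c had 8.66, 179, 7.57 and 21.9 CPM in Emb knockdown and 1.29, 10.4, 6.09 and 23.9 CPM in WT. Emb knockdown replicate 2 alone exceeded the WT range; the log2 fold change was 2.40 ± 1.13 (edgeR adjusted p = 0.386), and 0.32 without that library. Rab3a, the main Rab3 of brain synapses, had 7, 2, 8 and 0 counts in Emb knockdown and 15, 1, 10 and 29 in WT. It was not tested, and the groups overlapped.

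The SV2 proteins are transporter-like glycoproteins of the vesicle membrane, and SV2A binds the antiepileptic levetiracetam. Sv2a had 6.00, 5.83, 9.19 and 30.1 CPM in Emb knockdown and 3.86, 122, 28.2 and 16.9 CPM in WT (log2 fold change -1.74 ± 0.96, edgeR adjusted p = 0.453). Without WT replicate 2 its log2 fold change was -0.31, and without Emb knockdown replicate 4 it was -2.59. Sv2c had 4.66, 52.0, 10.8 and 45.7 CPM in Emb knockdown and 226, 27.6, 41.1 and 39.4 CPM in WT (log2 fold change -1.56 ± 0.94, adjusted p = 0.490), and -0.29 without WT replicate 1. For both genes the groups overlapped and a different WT library carried the difference. Sv2b had 7.57 to 31.3 CPM in Emb knockdown and 4.22 to 31.95 CPM in WT (log2 fold change -0.03 ± 0.72, and 0.48 without WT replicate 3). Syn2, the second synapsin, had 3.33 to 28.1 CPM in Emb knockdown and 6.43 to 39.1 CPM in WT (-0.84 ± 0.81, adjusted p = 0.683, -0.22 without WT replicate 2, and -1.88 without Emb knockdown replicate 2).

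At the active zone, 1 of the 5 genes tested was higher and 4 were lower, with a median log2 fold change of -0.31, and Pclo was the one above background in every library. Piccolo organises release sites together with its relative Bassoon. Pclo had 291, 273, 376 and 298 CPM in Emb knockdown and 1122, 408, 269 and 520 CPM in WT. WT replicate 3 lay below every Emb knockdown library, so the groups overlapped. The log2 fold change was -0.91 ± 0.68 (edgeR adjusted p = 0.584), and -0.30 without WT replicate 1. Per exonic kilobase, Pclo lay at 12.5 to 15.4 times the receptor-gene background in Emb knockdown and 7.84 to 29.4 times in WT. Bsn, which encodes Bassoon, had 14.0 to 56.4 CPM in Emb knockdown and 5.15 to 74.5 CPM in WT (-0.36 ± 0.76, and 0.09 without WT replicate 4), and held a median of 12.8% of the length-corrected counts of the pair in Emb knockdown and 16.1% in WT.

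The priming genes were low in both genotypes. Unc13a, which encodes Munc13-1, the factor that opens syntaxin for fusion, had 9.33 to 71.6 CPM in Emb knockdown and 5.15 to 35.1 CPM in WT (log2 fold change 0.72 ± 0.74, edgeR adjusted p = 0.705, and 0.19 without Emb knockdown replicate 2). Its exons overlap those of Colgalt1 on the opposite strand. Rims1 had 3.76 to 19.3 CPM in Emb knockdown and 12.6 to 18.01 CPM in WT (-0.31 ± 0.64, and 0.01 without Emb knockdown replicate 4), and Rims2 8.48 to 27.6 CPM in Emb knockdown and 1.15 to 27.4 CPM in WT (-0.08 ± 0.80, and 0.38 without WT replicate 3). These genes encode RIM proteins, which link Rab3 vesicles to calcium channels.

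Among the calcium sensors and their relatives, 2 of the 5 tested were higher and 3 were lower, with a median log2 fold change of -0.95. Syt1 and Syt11 had the highest mean levels per exonic kilobase of the 6, and their genotypes separated in opposite directions; by principal-transcript length, Syt7 had the highest median multiple of background in Emb knockdown (30.3 times, against 23.2 for Syt1 and 18.5 for Syt11). Syt1 (chromosome 10, 108497650 to 109010982, minus strand) encodes the sensor of fast synchronous release. It had 109, 110, 150 and 149 CPM in Emb knockdown, against 333, 174, 227 and 268 CPM in WT. All Emb knockdown libraries lay below all WT libraries. The log2 fold change was -0.95 ± 0.63 (edgeR adjusted p = 0.531), and -0.34 (adjusted p = 0.817) with receptor-gene scaling. As a multiple of the receptor-gene background, Syt1 lay at 15.6, 13.8, 14.6 and 16.9 times in Emb knockdown and 23.5, 14.2, 17.8 and 21.4 times in WT, where the groups overlapped.

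Syt11 (chromosome 3, 88744700 to 88775164, minus strand) encodes a synaptotagmin that does not bind calcium and restrains endocytosis and secretion; in mouse it is also known from microglia and macrophages. It had 508, 106, 94.6 and 105 CPM in Emb knockdown, against 59.2, 59.8, 27.4 and 38.0 CPM in WT. All Emb knockdown libraries lay above all WT libraries, with replicate 1 far above the rest. The log2 fold change came to 2.14 ± 0.79 (edgeR adjusted p = 0.314), with an interval of 0.41 to 3.87 at the 95% level, and was 1.15 without Emb knockdown replicate 1 (adjusted p = 0.472). Per exonic kilobase it lay at 14.8 to 116 times the receptor-gene background in Emb knockdown and 3.44 to 7.82 times in WT.

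Macrophage and dendritic cell markers were also higher in sum in every Emb knockdown library. Of the 12 markers on that list 10 were tested, 9 of them with a log2 fold change above 0, and 6 were higher at an unadjusted p under 0.05, beside 8.64% of all genes; 0 passed the adjusted p by edgeR. Their summed level was 4483 to 7440 CPM in Emb knockdown and 1604 to 4080 CPM in WT, and Emb knockdown replicate 1, which held most Syt11, also held the most of them. C1qa, a complement subunit made by tissue macrophages, averaged 3937 ± 999 CPM in Emb knockdown and 1485 ± 763 CPM in WT (SD, n = 4 each). Without it the sum was 759 to 2207 CPM in Emb knockdown and 1094 to 1753 CPM in WT, and the genotypes overlapped. That remaining sum includes Cx3cr1, the fractalkine receptor gene, which was the 1 tested marker that went the other way. It had 277 ± 300 CPM in Emb knockdown and 1151 ± 315 CPM in WT. Of the 12 markers, 4 were higher in every Emb knockdown library than in any WT library: C1qa, Adgre1, Mrc1 and Cd74. Only 1, Cx3cr1, was lower in every Emb knockdown library on TMM-scaled values. Its multiples of the receptor-gene background, 1.27 to 158 in Emb knockdown and 130 to 201 in WT, overlapped. The part of these markers in the level of Syt11 was not tested.

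The counts of Syt11 divided by those of Syt1, a ratio whose order depends on neither scaling nor gene length, were 4.65, 0.957, 0.630 and 0.702 in Emb knockdown and 0.178, 0.344, 0.121 and 0.141 in WT. Every Emb knockdown library lay above every WT library. With all annotated exons as the length, Syt11 made up 83.6%, 31.8%, 42.0% and 41.6% of the length-corrected counts of Syt1, Syt2, Syt4, Syt7 and Syt11 in Emb knockdown and 18.02%, 24.5%, 12.3% and 16.5% in WT. Syt1 made up 11.2% to 41.7% in Emb knockdown and 44.4% to 73.1% in WT. Neither share overlapped between the genotypes with these lengths, but both did with principal-transcript lengths, which are much shorter for Syt7. Syt11 then made up 65.2%, 10.2%, 25.9% and 23.2% in Emb knockdown and 8.93%, 12.4%, 8.04% and 10.8% in WT, and Syt1 11.1% to 42.8% in Emb knockdown and 37.5% to 79.7% in WT. The share of Napb among the NSF adaptors did not overlap with either length. The ratio, these shares and those of the NSF adaptors were picked out after their values were seen; for the paralogues of SV2, Rab3, complexin, synaptobrevin, synapsin, RIM and the Bassoon and Piccolo pair, the shares overlapped.

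**Figure D4:**
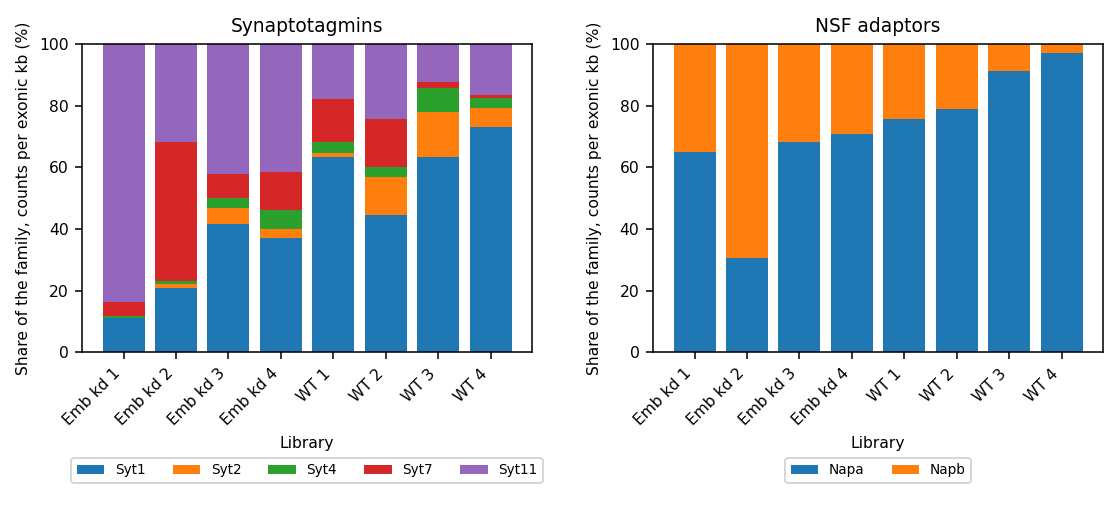
Share of each paralogue in the summed counts per exonic kilobase of the synaptotagmins (left) and of the NSF adaptors (right), as stacked bars for 4 Emb knockdown and 4 WT libraries. With these all-exon lengths Syt11 takes 31.8% to 83.6% in Emb knockdown and 12.3% to 24.5% in WT, and Napb 29.2% to 69.5% in Emb knockdown and 3.06% to 24.4% in WT.

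The other calcium sensors were low or carried by single libraries. Syt7, the slow sensor of asynchronous release and of lysosome fusion, had 41.3, 215, 25.4 and 45.1 CPM in Emb knockdown and 64.3, 54.0, 6.85 and 2.81 CPM in WT (log2 fold change 1.36 ± 1.01, edgeR adjusted p = 0.581), and 0.25 without Emb knockdown replicate 2. Syt2, a fast sensor related to Syt1, had 0, 6.89, 17.3 and 11.3 CPM in Emb knockdown and 6.43, 44.8, 47.9 and 21.1 CPM in WT (-1.75 ± 0.98, adjusted p = 0.456). WT replicate 1 kept the groups from separating. Doc2b, a high-affinity sensor of spontaneous release, had 11.99, 1.06, 7.57 and 8.77 CPM in Emb knockdown and 18.01, 37.9, 15.98 and 5.62 CPM in WT (-1.40 ± 0.80, adjusted p = 0.469, and -0.79 without WT replicate 2). Syt4, a synaptotagmin of dense core vesicles, had 3 to 18 counts in Emb knockdown and 4 to 17 in WT and was not tested.

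Other genes of the release cycle were followed in 7 lists of SNARE partners, sensors, vesicle proteins, scaffolds, transporters, endocytosis and dense core granules. Of 119 genes, 117 were found and 84 tested; 0 passed the adjusted p by edgeR, while 6 higher and 3 lower had an unadjusted p under 0.05, beside the 13.3% of all genes. Their median log2 fold change was 0.34, with 51 higher and 33 lower. By list the median was 0.76 for SNARE and fusion partners, 0.53 for endocytosis, 0.49 for dense core granules, 0.22 for sensors and priming, 0.22 for other vesicle and Rab proteins, 0.06 for transporters and the proton pump, and -0.01 for active zone scaffolds.

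Itsn2, an endocytic scaffold, had 258, 164, 171 and 108 CPM in Emb knockdown and 42.5, 67.8, 48.7 and 38.0 CPM in WT (log2 fold change 1.83 ± 0.63, edgeR adjusted p = 0.309). Its groups did not overlap. Atp6ap1, an accessory subunit of the vesicle proton pump, had 578, 632, 525 and 262 CPM in Emb knockdown and 41.2, 191, 220 and 7.03 CPM in WT (2.12 ± 0.97, adjusted p = 0.376), again with no overlap. The pump subunit gene Atp6v1h went the other way, with 9.99, 22.3, 4.32 and 8.77 CPM in Emb knockdown and 69.5, 52.9, 19.8 and 11.2 CPM in WT (-1.75 ± 0.75, adjusted p = 0.349), and its groups overlapped.

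Chga, the granule protein chromogranin A of neuroendocrine cells, had 38.0, 3.18, 4.32 and 7.52 CPM in Emb knockdown and 129, 155, 14.5 and 32.3 CPM in WT (log2 fold change -2.64 ± 1.01, edgeR adjusted p = 0.320), and its groups overlapped. Without Emb knockdown replicate 1 the value was -4.01. Chga is also on the enteroendocrine list above. Single libraries carried the clathrin light chain genes and the liprin gene Ppfia4. Clta had 212 CPM in WT replicate 2 and at most 9.89 CPM in the other WT libraries (log2 fold change -3.02 ± 1.16, and -0.07 without it), Cltb 352 CPM in Emb knockdown replicate 4 (2.98 ± 1.29, and 0.91 without it), and Ppfia4 816 CPM in Emb knockdown replicate 3 (3.33 ± 1.35, and 0.25 without it). Stx3, a syntaxin of epithelial and ribbon-synapse exocytosis, had 15.99, 66.8, 125 and 18.2 CPM in Emb knockdown and 0, 21.8, 12.2 and 5.62 CPM in WT (2.48 ± 1.02, adjusted p = 0.334), and Syt9 106 CPM in Emb knockdown replicate 2 and at most 16.9 CPM in the other Emb knockdown libraries (2.76 ± 1.18, adjusted p = 0.352); without that library Syt9 was not tested.

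**Figure D5:**
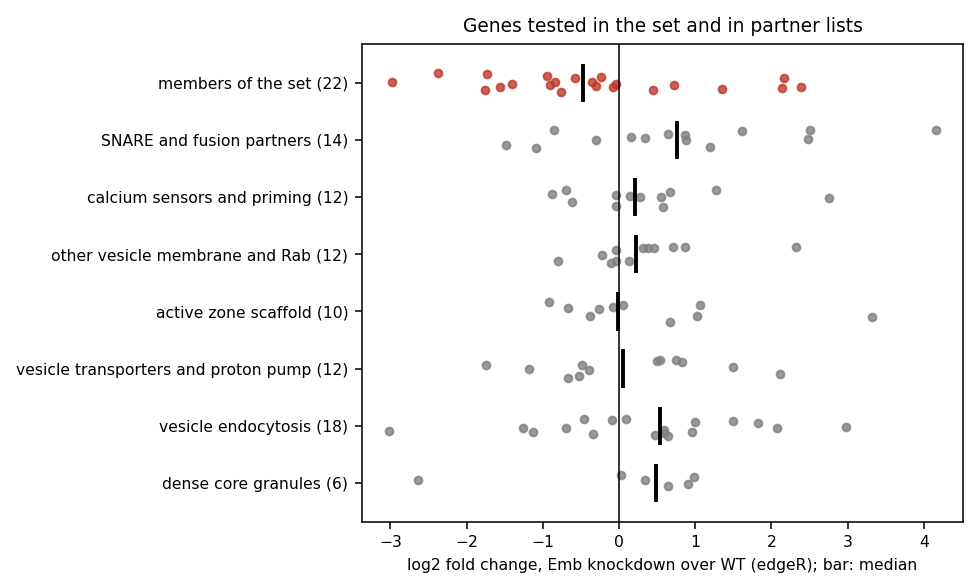
Log2 fold change of Emb knockdown over WT for each tested gene of the set (top row, red) and of the 7 partner lists (grey), with the number of genes tested beside each name and a bar at the median. The median of the set is -0.47, and those of the partner lists run from -0.01 to 0.76.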

How the data were processed

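The values are raw counts, 1 column for each of 8 Smart-seq libraries, as deposited by the authors. Per the submitters' processing notes, cutadapt and the build mm10 were used; the sources used here do not give the aligner, counter, strand setting or annotation. The 30 genes, the partner and marker lists and the named genes were chosen with earlier results of these data known.

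All 55414 genes entered edgeR 4.0.16 (R 4.3.3): filterByExpr (minimum count 10, minimum total 15), TMM factors on the filtered totals, robust quasi-likelihood fits with genotype as the only term, and Benjamini-Hochberg adjustment over 11353 genes at 0.05. The fit was tested on simulated data. Full statistics are given for the 12 tested genes of the set with the smallest p, and up to 3 genes per partner list. Exon lengths and positions came from GENCODE M21 (GRCm38), and the receptor-gene background from 1506 genes. DESeq2 1.42.0 and limma 3.58.1 voom were alternatives. Reads were amplified and carry no molecular identifiers, so 1 molecule can give several counts. Exons of 12 of the 30 genes overlap another annotated gene. Some genes of the partner and marker lists are not reported here.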

Additional observations from a re-analysis of the deposited data

Results flagged for a closer look

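For each of the 30 genes and each genotype, the gap between the highest or lowest library and its nearest neighbour was divided by the range of the 4 libraries. Of 60 such groups, 9 had a ratio above Dixon's 95% critical value for 4 samples. For normally distributed values about 1 in 20 groups would pass it. CPM of sparse counts need not be so distributed, so the 9 of 60 cannot be read against that rate. In all 9 the highest library stood apart. Emb knockdown replicate 2 held the largest group of them: Snapin in Emb knockdown replicate 2 (22.8 CPM, next 1.08 CPM; ratio 0.953), Rab3c in Emb knockdown replicate 2 (179 CPM, next 21.9 CPM; ratio 0.916), Syt7 in Emb knockdown replicate 2 (215 CPM, next 45.1 CPM; ratio 0.896) and Syn2 in Emb knockdown replicate 2 (28.1 CPM, next 6.49 CPM; ratio 0.873). WT replicate 1 stood apart for 2 genes, Sv2c in WT replicate 1 (226 CPM, next 41.1 CPM; ratio 0.932) and Stx1a in WT replicate 1 (154 CPM, next 9.84 CPM; ratio 0.943). The others were Syt11 in Emb knockdown replicate 1 (508 CPM, next 106 CPM; ratio 0.974), Syn1 in Emb knockdown replicate 3 (7.57 CPM, next 2.12 CPM; ratio 0.863) and Sv2a in Emb knockdown replicate 4 (30.1 CPM, next 9.19 CPM; ratio 0.862). The fold changes of Stx1a, Rab3c, Syt7 and Sv2c shrank to 0.32 or less in size on the log2 scale without these libraries, as given above, and that of Syt11 to 1.15. Those of Syn2 and Sv2a grew to -1.88 (edgeR unadjusted p = 0.0387, adjusted p = 0.364) and -2.59 (unadjusted p = 0.0337, adjusted p = 0.315). The number of starting cells whose RNA was captured per gene is not known, and its part in these single high libraries was not tested.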

How the results depend on the processing

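Of 590 recomputed values, 575 were labelled the same as reported. For a fold change this needed only the same sign and the same side of an adjusted p of 0.05. A missing adjusted p counted as not past it. Counts had to stay within 1.5 times the reported count, and the median within the SD of the Emb knockdown library medians. As 0 genes passed the threshold in the reported fit, a fold change could differ much in size and still be labelled the same. The fold changes of the 12 genes of the set with the smallest p kept their sign in every fit that tested them; those of Sv2b, Rims1, Rims2, Bsn and Nsf changed sign when a single library was left out, and the median of the set was 0.08 when scaled to the receptor genes, a scaling that moved the median of all genes to 0.64. Genes past an adjusted p of 0.05 numbered 0 by edgeR and limma voom, 683 by the DESeq2 Wald test, 910 by edgeR with no filter and 2 with library totals alone. At an unadjusted p under 0.05 there were 1508 genes, 5455 with no filter, and 1131 to 1722 when single libraries were left out. Of the set, 0 passed the adjusted p (4 had an unadjusted p under 0.05), 1 of the 18 with an adjusted p by DESeq2 (Rph3a; Syt11, Stx1a, Rab3c and Napb had none), and 0 in each fit without a library. The 4 genes of the set with an unadjusted p under 0.05 became 8 (all lower) with library totals alone and 1 after thinning to equal counts outside ribosomal RNA, where 15 of the set remained testable; leaving out single libraries gave 2 to 4, with 2 without WT replicate 3. The median of the set ran from -0.70 to -0.27 over the fits that left out a library, and was -0.24 with no filter, over all 30 genes. Whether replicate numbers pair the libraries was not settled. Correlations of same-numbered deviations across genes were 0.01 to 0.03. For 3 of the 4 Emb knockdown libraries the same-numbered WT library correlated highest. Correlations this small cannot tell whether a pairing exists. With the replicate block, 918 genes had an unadjusted p under 0.05, 0 passed the adjusted p, and the set had 3 and 0, with a median of -0.49. Depth limits the set: 8 of the 30 genes had too few counts to test. The causes of these differences were not tested.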

Other observations

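A vesicle transporter gene and an endocytic gene, chosen after their values were seen, were lower in every Emb knockdown library than in any WT library. Slc17a9, the vesicular nucleotide transporter that loads ATP into vesicles for purinergic transmission, had 366, 497, 611 and 734 CPM in Emb knockdown and 1323, 1316, 840 and 1523 CPM in WT (log2 fold change -1.18 ± 0.60, edgeR adjusted p = 0.418). It lay at 136 to 217 times the receptor-gene background in Emb knockdown and 172 to 317 times in WT, where the groups overlapped. Dnm3, a dynamin that pinches vesicles from the membrane, had 87.3, 88.0, 67.6 and 101 CPM in Emb knockdown and 211, 160, 177 and 207 CPM in WT (-1.13 ± 0.60, adjusted p = 0.430). The transporters that load acetylcholine (Slc18a3) and glutamate (Slc17a6) had too few counts to test, with 0.53 to 23.2 CPM in Emb knockdown and 0 to 8.43 CPM in WT for Slc18a3, and 1.88 to 3.24 CPM in Emb knockdown and 1.15 to 23.2 CPM in WT for Slc17a6.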
